A study of Mus musculus with 5 samples.

Results

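A set of 9 genes that build or carry sialylated and branched glycans is described here across sorted mouse spleen T cells. They are St6gal1, St3gal1, St3gal4, St3gal6 and St8sia4 (sialyltransferases), Galnt10, Gcnt1 and Gcnt2 (enzymes that start or branch glycan chains) and Selplg (a carrier of O-glycans). They were picked by gene name, 9 of 35275 genes in the table, with differences between the groups already known. Their differences are therefore given as a description, without p-values.

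RNA was sequenced in 5 libraries of wild-type C57BL/6 mice aged 3 months. There were 2 libraries of CD4 Treg (CD4+ regulatory T cells), 1 of CD8 Treg (CD8+ regulatory T cells) and 2 of cells labelled CD49lo. Every library came from spleen cells that were enriched for CD8, stained and sorted by flow cytometry. The CD49lo group is the CD8+ effector-like population of the study's design only by elimination, and the sort markers are not stated in the labels. Nothing in the labels ties a replicate to an animal of its own. Errors and p-values therefore cover only the spread among these libraries, and that spread may be technical.

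Levels are given as RPKM (reads per kilobase of gene, relative to the depth of the library), a scale that allows genes to be compared. Between 5441444 and 8354971 reads fell in genes in each library. The sort genes Foxp3 and Cd8a set CD4 Treg apart from the other groups. Foxp3 stood at 146 RPKM in each CD4 Treg library and at 0.387 to 1.66 in the others. Cd8a was at 187 to 255 RPKM in CD8 Treg and CD49lo and at 0.352 and 0.412 in CD4 Treg. Neither gene was called between CD8 Treg and CD49lo, so they do not bear on which of those labels a library carries. CD8 Treg and CD49lo also held transcripts of genes listed as markers of other cells. Some of these, such as Nkg7 and Gzma among the NK cell markers, may be expressed by the sorted cells themselves. The summed level of 16 B cell markers was 517 and 592 RPKM in CD4 Treg, 915 in the CD8 Treg library, and 1858 and 1792 in CD49lo, and that of 11 myeloid markers was 17.1 and 4.01 RPKM in CD4 Treg, 287 in the CD8 Treg library, and 582 and 517 in CD49lo. The B cell sum in CD8 Treg and CD49lo came mostly from Cd74, Ighm and H2-Ab1. Cd74 was at 369 RPKM in CD8 Treg and at 763 and 797 in CD49lo. Ighm was at 285 in CD8 Treg and at 518 and 336 in CD49lo, and H2-Ab1 at 157, and at 389 and 398. In CD4 Treg the B cell sum was mostly Ighm (444 and 521 RPKM, not called against CD49lo). The other 15 B cell markers were called lower in CD4 Treg than in CD49lo, where 12.8% of all genes tested were lower. All 11 myeloid markers were called lower too, and 0 of the B cell and myeloid markers were without reads in any group. The summed level of 10 NK cell markers was 21.4 and 16.8, 585, and 878 and 2450 RPKM, with Ncr1 and Klrd1 at 0 reads in CD4 Treg and Khdc1a at 0 in the other groups. For 10 dendritic cell markers it was 54.8 and 42.5, 31.1, and 93.5 and 97.7 RPKM, with Xcr1, Cd209a and Batf3 at 0 reads in CD4 Treg and Clec9a at 0 in CD8 Treg. That sum was carried by Bst2 in CD4 Treg (47.9 and 37.5 RPKM) and CD8 Treg (21.1), whereas Itgax was at 23.3 and 25.4 RPKM in CD49lo, 5.09 in CD8 Treg, and 0.1196 and 0 in CD4 Treg. Xist reads placed both CD4 Treg libraries apart (35.5 and 27.2 RPKM, against at most 0.0834 elsewhere), so sex and the CD4 Treg group cannot be told apart. The part of these features in the results below was not tested except where a value is given.

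Sialic acids cap the glycans of lymphocyte surfaces, and the linkage is set by the enzyme that adds them. ST6GAL1 adds alpha2,6-linked sialic acid to lactosamine ends, mostly on N-glycans, and makes the ligand of the B cell lectin CD22. ST3GAL enzymes add alpha2,3-linked sialic acid, which is part of selectin ligands. O-glycans start with a GalNAc added by GALNT enzymes. GCNT1 then branches them (core 2), and ST3GAL1 competes with it by capping the unbranched core 1. PSGL-1, the product of Selplg, binds selectins when its O-glycans carry core 2 branches, alpha2,3 sialic acid and fucose.

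All 9 genes passed the filter on low reads. In the fit across 13298 genes, 7 of the 9 were called (adjusted p under 0.05) in CD4 Treg against CD49lo, 3 higher and 4 lower, where 22.3% of all genes tested were called (9.45% higher, 12.8% lower). For CD8 Treg against CD49lo the count was 2 of the 9, both higher, against 5.30% of all genes (1.71% higher and 3.59% lower). In CD8 Treg against CD4 Treg 4 were called, 3 higher and 1 lower, against 16.9% (8.51% higher and 8.35% lower). Since these differences were known when the genes were picked, nothing is read from the counts. They also rested on each library: the first count was 3 without either CD4 Treg replicate and 2 without either CD49lo replicate, the second 1, 1, 0 and 0, and the third 2, 1, 0 and 1, in the order CD4 Treg replicates 1 and 2, CD49lo replicates 1 and 2. Where 0 were called, 4 (without CD49lo replicate 1) and 3 (replicate 2) of the 9 had an unadjusted limma p under 0.05 in the second comparison, and 5 in the third. The median log2 fold change of the 9 was -0.44, -0.29 and 0.24 in the 3 comparisons, beside -0.03, -0.04 and 0.02 for all genes tested.

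**Figure D1:**
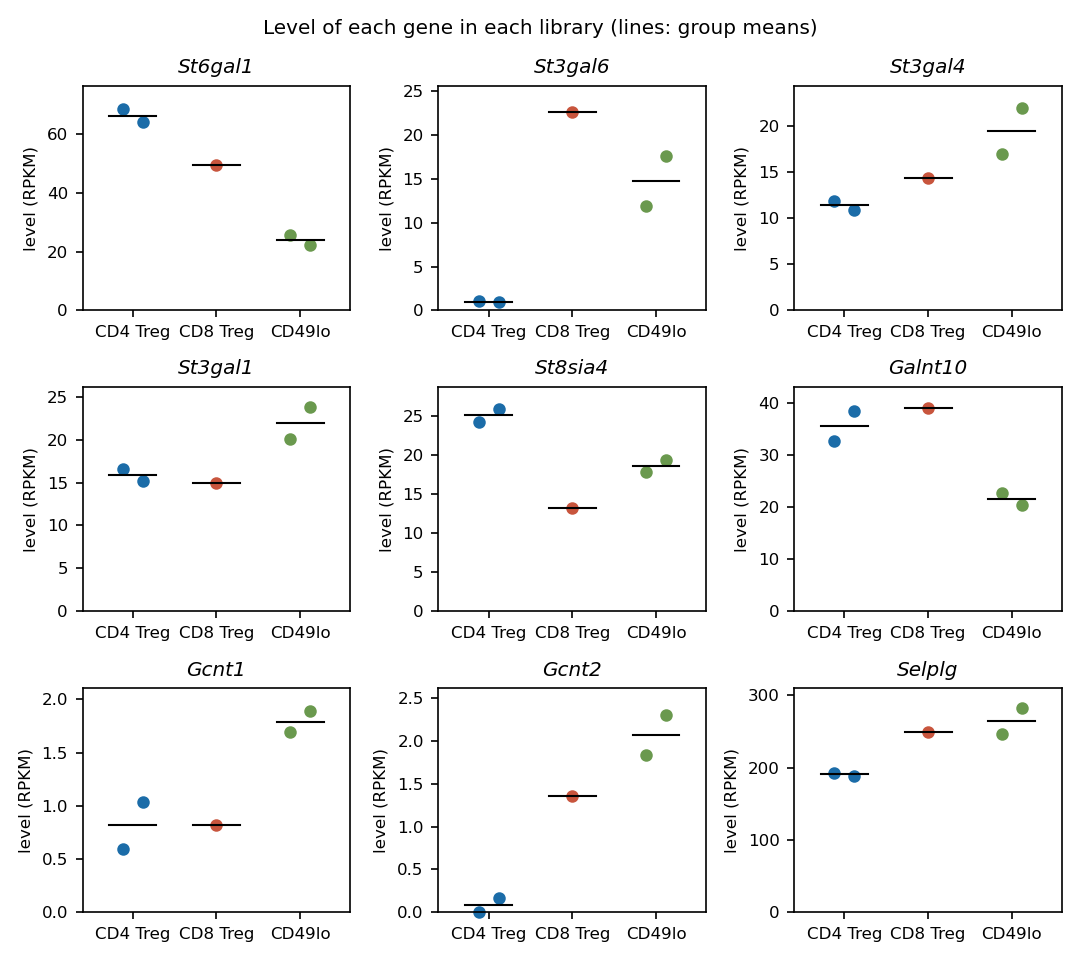
Level in RPKM (vertical axis, from 0) of each of the 9 genes in each library, by group; each point is 1 library and each line a group mean, which for CD8 Treg is its single library. St6gal1 falls from 64.2 and 68.4 RPKM in CD4 Treg to 22.2 and 25.7 in CD49lo with CD8 Treg at 49.3 between them, while St3gal6 is near 1 RPKM in CD4 Treg alone.

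In CD4 Treg against CD49lo, the alpha2,6 sialyltransferase St6gal1 was higher and the alpha2,3 sialyltransferase St3gal6 lower, while fitted values of both were above 0 in CD8 Treg against CD49lo. St6gal1 (ENSMUSG00000022885, mm10 chromosome 16, 23224740 to 23360350, plus strand) was at 68.4 and 64.2 RPKM in CD4 Treg, at 49.3 in CD8 Treg, and at 25.7 and 22.2 in CD49lo. Both CD4 Treg libraries were high, CD49lo low, and the groups did not overlap. The group means were 66.3 ± 2.95 RPKM in CD4 Treg (SD, n = 2) and 23.9 ± 2.46 in CD49lo (SD, n = 2), and the fitted difference was a log2 fold change of 1.48 ± 0.12 (SE, as for every fold change), or 2.79-fold. The level in CD8 Treg was 2.24-fold that of CD49lo (log2 fold change 1.16 ± 0.15), and against CD4 Treg the log2 fold change was -0.31 ± 0.15. BC106179 on the opposite strand overlaps St6gal1 and held 11 to 61 reads per library, beside 657 to 1911 for St6gal1. The labels do not say whether counting used strand. B cells also express St6gal1, and the B cell gene Ms4a1 was at 0.891 and 0.1195 RPKM in CD4 Treg, 10.9 in the CD8 Treg library, and 19.1 and 35.3 in CD49lo; the part of B cells in the St6gal1 levels was not tested. In bulk libraries, fewer cells of a type and less RNA per cell cannot be told apart.

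St3gal6 (ENSMUSG00000022747, chromosome 16, 58468125 to 58524243, minus strand) encodes an enzyme that puts alpha2,3 sialic acid on lactosamine and takes part in making selectin ligands. It was at 1.06 and 0.981 RPKM in CD4 Treg, at 22.6 in CD8 Treg, and at 11.9 and 17.7 in CD49lo. CD4 Treg was the low group and CD8 Treg the highest library. The fitted log2 fold change was -3.28 ± 0.23 in CD4 Treg against CD49lo, or 9.69-fold lower, and 4.03 ± 0.29 in CD8 Treg against CD4 Treg, or 16.4-fold higher. In CD8 Treg against CD49lo it was 0.76 ± 0.29, where the CD49lo replicates themselves differed 1.48-fold. In reads, CD4 Treg held 27 and 22, CD8 Treg 567 and CD49lo 410 and 478. Dcbld2 on the opposite strand overlaps St3gal6 and held 9 and 4 reads in CD4 Treg, 10 in CD8 Treg, and 16 and 40 in CD49lo. Among all 13298 genes, the 5th and 95th percentiles of the log2 fold change in CD4 Treg against CD49lo were -2.22 and 1.16, so St6gal1 and St3gal6 lay outside that range on opposite sides. Of the 7 genes called there, these were the 2 that kept the call without each of the 4 replicated libraries in turn. Over all genes, the calls in that comparison fell from 2964 to between 437 and 1457 when a replicate was left out. Since the 9 genes were picked with their differences known, a kept call describes these libraries and is not independent evidence. Without CD49lo replicate 1, St3gal6 lost its call in CD8 Treg against CD4 Treg, and without either CD49lo replicate St6gal1 lost its call in CD8 Treg against CD49lo. A library outside a comparison still enters its fit through the shared spread, and 1 residual degree of freedom remains when a replicate is left out. The calls of St3gal4, Selplg and St8sia4 in CD4 Treg against CD49lo were lost without any of the 4 replicates. The call of Galnt10 there was lost without CD4 Treg replicate 2 or either CD49lo replicate, and that of Gcnt2 without CD4 Treg replicate 1 or either CD49lo replicate. In CD8 Treg against CD49lo, Galnt10 lost its call without any of the 4. In CD8 Treg against CD4 Treg, Gcnt2 and Selplg did too, and St8sia4 lost it without CD4 Treg replicate 2 or either CD49lo replicate.

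The sequences upstream of these genes are shown because St6gal1 and St3gal6 moved in opposite directions in CD4 Treg against CD49lo and St8sia4 was lowest in CD8 Treg. RefSeq's GRCm38.p6 table held start sites for 7 of the 9 genes. Each window below is the 250 bases before a start site, 5′ to 3′ on the gene's strand. Capitals mark the RUNX motif TGTGGT on either strand (reverse complement ACCACA).
St6gal1, chr16:23224490-23224739, plus strand: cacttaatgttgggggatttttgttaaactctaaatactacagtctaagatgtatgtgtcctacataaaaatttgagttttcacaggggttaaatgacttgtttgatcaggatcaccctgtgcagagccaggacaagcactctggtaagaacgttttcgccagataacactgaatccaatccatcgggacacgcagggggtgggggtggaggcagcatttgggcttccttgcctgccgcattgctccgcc
St3gal6, chr16:58524254-58524503, minus strand: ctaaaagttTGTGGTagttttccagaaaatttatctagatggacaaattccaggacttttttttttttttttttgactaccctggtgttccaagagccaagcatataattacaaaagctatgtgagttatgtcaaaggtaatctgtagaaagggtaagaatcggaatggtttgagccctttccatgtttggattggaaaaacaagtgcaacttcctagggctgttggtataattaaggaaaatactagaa
St8sia4, chr1:95667595-95667844, minus strand: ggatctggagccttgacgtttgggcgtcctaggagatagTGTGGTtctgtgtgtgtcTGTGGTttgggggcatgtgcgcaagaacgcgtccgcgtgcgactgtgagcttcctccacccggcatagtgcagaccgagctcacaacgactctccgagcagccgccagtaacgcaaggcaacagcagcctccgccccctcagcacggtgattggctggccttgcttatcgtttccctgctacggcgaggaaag
The St6gal1 window ends at the base before the start of the gene in the deposited table; RefSeq lists other start sites for St6gal1 and St3gal6 as well. The RUNX motif was in 2 of the 14 windows of the 7 genes, at -241 in the St3gal6 window shown and at -211 and -193 in that of St8sia4, counted in bases from the start site. It was in 14.0% of 32851 windows of the same length over all genes. The T-box motif AGGTGTG (reverse complement CACACCT) was in 0 of the 14 windows and in 5.10% of all. The GC content of the 3 windows was 47.2%, 34.8% and 60.4%. These matches describe letters in a window, not binding.

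The other alpha2,3 enzymes among the 9, St3gal4 and St3gal1, had smaller fitted differences in CD4 Treg against CD49lo, of the same sign as St3gal6. St3gal4 (ENSMUSG00000032038, chromosome 9, 35046579 to 35116810), which acts on lactosamine ends as St3gal6 does, was at 11.8 and 10.9 RPKM in CD4 Treg, at 14.3 in CD8 Treg, and at 16.9 and 21.9 in CD49lo. CD4 Treg was lowest, CD49lo highest and CD8 Treg between them. The log2 fold change in CD4 Treg against CD49lo was -0.71 ± 0.20. A gene on the opposite strand, 4930581F22Rik, overlaps St3gal4 and held 26 to 105 reads per library beside 120 to 292 for St3gal4. The labels do not say whether counting used strand, so the level of St3gal4 is uncertain to that extent.

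St3gal1 (ENSMUSG00000013846, chromosome 15, 67102875 to 67113992), whose enzyme caps core 1 O-glycans and is needed for the survival of peripheral CD8 T cells in mice, was at 16.6 and 15.2 RPKM in CD4 Treg, at 14.96 in CD8 Treg, and at 20.0 and 23.7 in CD49lo. CD49lo was above the other 3 libraries. Relative to CD49lo, the log2 fold change was -0.42 ± 0.14 for CD4 Treg and -0.40 ± 0.17 in CD8 Treg. Between the Treg groups it was 0.02 ± 0.17, smaller than its error, and -0.08 without a scaling factor, a setting that moved the median of all genes by -0.09.

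St8sia4 encodes a polysialyltransferase, which extends chains of alpha2,8 sialic acid on a few carrier proteins (ENSMUSG00000040710, chromosome 1, 95587682 to 95667571). It was at 24.3 and 26.0 RPKM in CD4 Treg, at 13.3 in CD8 Treg, and at 17.9 and 19.4 in CD49lo. CD4 Treg was highest, and CD8 Treg lay below both CD49lo libraries. The log2 fold change was -0.79 ± 0.13 in CD8 Treg against CD4 Treg, -0.35 ± 0.13 against CD49lo, and 0.45 ± 0.11 in CD4 Treg against CD49lo.

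Summed over the 20 sialyltransferase genes in the table, the level was 187 and 181 RPKM in CD4 Treg, 137 in the CD8 Treg library, and 124 and 135 in CD49lo. CD4 Treg was above the rest. St6gal1 made up 36.5% and 35.4% of that sum in CD4 Treg, 36.0% in CD8 Treg, and 20.7% and 16.5% in CD49lo. St3gal6 made up 0.564% and 0.541%, 16.5%, and 9.57% and 13.1%. The CD8 Treg library thus had a St6gal1 share like that of CD4 Treg and a St3gal6 share above that of either CD49lo library. Among the enzymes that compete for lactosamine ends (St6gal1, St3gal4 and St3gal6), St6gal1 held 84.1% and 84.4% of the RPKM in CD4 Treg, 57.2% in the CD8 Treg library, and 47.1% and 35.9% in CD49lo. St6gal1 exceeded St3gal6 by 64.8 and 65.5 times in CD4 Treg, by 2.18 times in CD8 Treg, and by 2.16 and 1.26 times in CD49lo. These are transcript ratios; linkages on the cell surface were not measured.

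**Figure D2:**
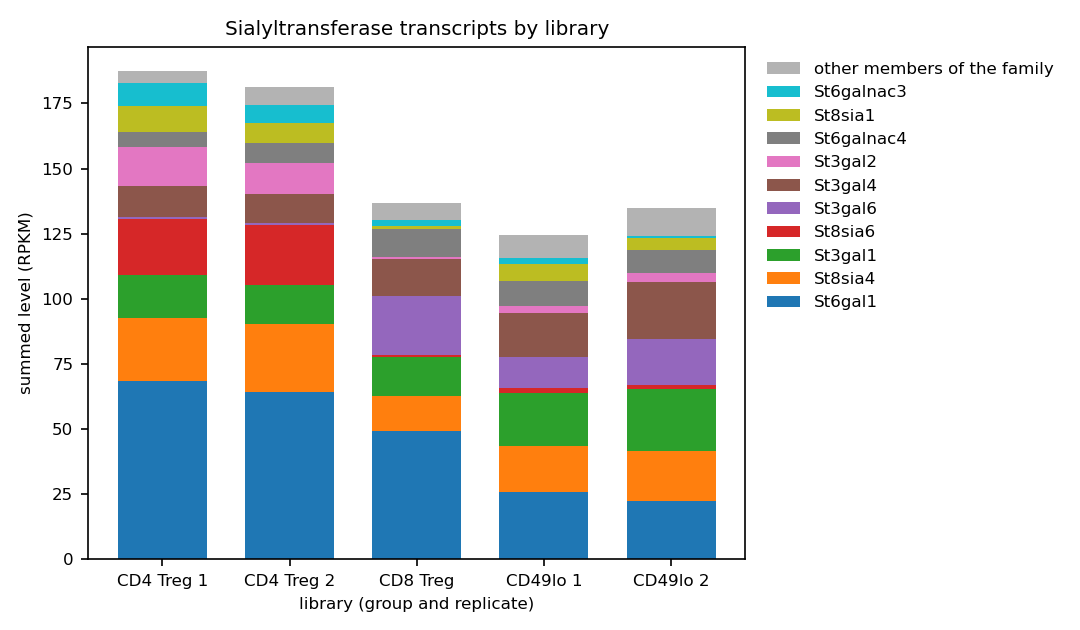
Summed level in RPKM (vertical axis, from 0) of the sialyltransferase genes in each library, stacked by gene; genes that stay under 5 RPKM in every library are summed in light grey. The St6gal1 layer shrinks from CD4 Treg to CD49lo, the St3gal6 layer is almost absent in CD4 Treg (at most 1.06 RPKM), and the St8sia6 layer is thick in CD4 Treg only (21.2 and 22.8 RPKM).

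The sialyltransferases outside the 9 were read from a list set by role. That list too was made with earlier results known, so its adjusted p-values describe these libraries and are not independent evidence. Of 15 such genes, 8 had enough reads. In CD4 Treg against CD49lo 3 were higher and 0 lower, in CD8 Treg against CD49lo 0 were higher and 2 lower, and in CD8 Treg against CD4 Treg 0 were higher and 3 lower. Over all genes tested the shares were 9.45% higher and 12.8% lower, 1.71% and 3.59%, and 8.51% and 8.35%. St8sia6, an alpha2,8 sialyltransferase that makes ligands for some Siglecs, was at 21.2 and 22.8 RPKM in CD4 Treg, at 0.671 in CD8 Treg, and at 1.98 and 1.45 in CD49lo. Its log2 fold change was 3.37 ± 0.20 in CD4 Treg against CD49lo (limma adjusted p = 6.19e-06) and -4.20 ± 0.25 in CD8 Treg against CD4 Treg (adjusted p = 9.78e-06). St8sia6 therefore separated CD4 Treg from the other groups in the direction opposite to St3gal6. St3gal2, which sialylates core 1 O-glycans and gangliosides, was at 13.4 ± 1.97 RPKM in CD4 Treg (SD, n = 2), 3.10 ± 0.375 in CD49lo (SD, n = 2) and 0.899 in the CD8 Treg library. It was higher in CD4 Treg than in CD49lo (1.97 ± 0.23, adjusted p = 0.00028) and lower in CD8 Treg than in CD49lo (-1.26 ± 0.28, adjusted p = 0.0342). St8sia1, the GD3 synthase, was at 1.25 RPKM in CD8 Treg and 4.74 to 9.88 in the other libraries, lower in CD8 Treg than in CD49lo (-1.72 ± 0.26, adjusted p = 0.00581) and than in CD4 Treg (-2.33 ± 0.26, adjusted p = 0.000327).

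The enzymes that start and branch O-glycans came next. Galnt10 (ENSMUSG00000020520, chromosome 11, 57645442 to 57787514), a GalNAc transferase that prefers partly glycosylated mucin peptides, was at 32.7 and 38.4 RPKM in CD4 Treg, at 38.9 in CD8 Treg, and at 22.7 and 20.3 in CD49lo. All 3 Treg libraries were above both CD49lo libraries. Relative to CD49lo, the log2 fold change was 0.74 ± 0.13 for CD4 Treg and 0.97 ± 0.16 in CD8 Treg. Of 18 other GalNAc transferases, 9 were tested. The most abundant, Galnt6, was at 70.1 and 75.4 RPKM in CD4 Treg, at 56.2 in CD8 Treg, and at 49.9 and 50.6 in CD49lo, and was higher in CD4 Treg than in CD49lo (0.55 ± 0.10, adjusted p = 0.0043). Galnt3 had 131 reads in the 2 CD49lo libraries, 44 in the CD8 Treg library and only 3 in the 2 CD4 Treg libraries. At equal depth that is 34.1 times fewer reads in CD4 Treg than in CD49lo (95% exact interval 11.4 to 167, counting error only), and the test called it lower (adjusted p = 0.00423). The other 7 were not called in that comparison, where 22.3% of all genes tested were called.

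Gcnt1 (ENSMUSG00000038843, chromosome 19, 17326141 to 17356667), the core 2 branching enzyme of activated and effector T cells, was low in every library. It was at 0.595 and 1.04 RPKM in CD4 Treg, at 0.822 in CD8 Treg, and at 1.69 and 1.89 in CD49lo, from 17 to 65 reads. CD49lo was above the other 3 libraries, and the CD8 Treg value lay between the CD4 Treg replicates, which differed 1.74-fold. At equal depth, CD49lo held 2.21 times the reads of CD4 Treg (95% exact interval 1.55 to 3.21, counting error only) and 2.16 times those of CD8 Treg (1.37 to 3.53). The fit gave log2 fold changes of -0.79 ± 0.36 and -0.70 ± 0.44, which did not pass its threshold. St3gal1, the competing enzyme, exceeded Gcnt1 in RPKM by 27.8 and 14.6 times in CD4 Treg, 18.2 times in CD8 Treg, and 11.9 and 12.6 times in CD49lo; the ratio rests on the few Gcnt1 reads.

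Gcnt2 (ENSMUSG00000021360, chromosome 13, 40859768 to 40960891) adds I branches to chains of repeated lactosamine. It was at 0 and 0.168 RPKM in CD4 Treg, at 1.36 in CD8 Treg, and at 1.84 and 2.30 in CD49lo, from 0, 4, 36, 67 and 66 reads. CD4 Treg was close to the detection limit, where 0 reads in its first library allow up to 0.111 RPKM. At equal depth CD49lo held 26.0 times the reads of CD4 Treg (95% exact interval 9.90 to 96.6), and CD8 Treg held 17.3 times (6.19 to 66.7). The fitted log2 fold changes, -2.12 ± 0.43 and 1.76 ± 0.52, are smaller because 0.5 RPKM is added before the logarithm. Between CD8 Treg and CD49lo the log2 fold change was -0.36 ± 0.52. A730081D07Rik on the opposite strand overlaps Gcnt2 and held 20 reads in CD49lo replicate 2 and at most 4 elsewhere.

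Selplg (ENSMUSG00000048163, chromosome 5, 113817798 to 113830501) was the most abundant of the 9 in every library, above 97.9% to 98.6% of the tested genes. It was at 193 and 188 RPKM in CD4 Treg, at 250 in CD8 Treg, and at 246 and 282 in CD49lo. CD4 Treg was lowest, and the CD8 Treg value lay between the CD49lo replicates. The log2 fold change was -0.44 ± 0.10 in CD4 Treg against CD49lo and 0.50 ± 0.12 in CD8 Treg against CD4 Treg. In CD8 Treg against CD49lo it was 0.06 ± 0.12, smaller than its error, and -0.08 without a scaling factor, a setting that moved the median of all genes by -0.12.

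**Figure D3:**
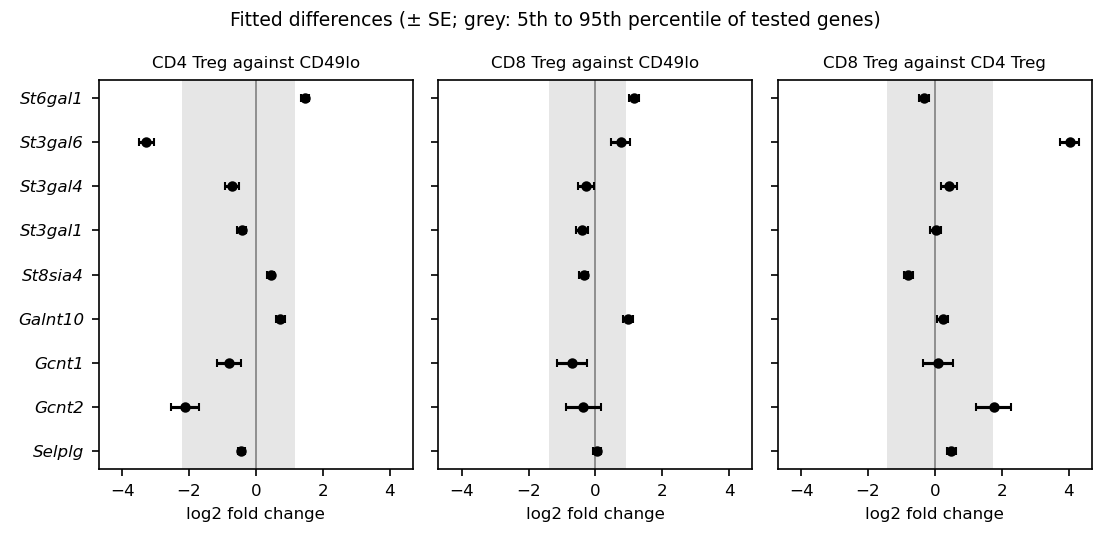
Log2 fold change (horizontal axis) of each of the 9 genes in the 3 comparisons; points are fitted values, bars their standard errors, and the grey band spans the 5th to 95th percentiles of all tested genes. St6gal1 (1.48) and St3gal6 (-3.28) lie on opposite sides of the band in CD4 Treg against CD49lo, and St3gal6 (4.03) lies far right in CD8 Treg against CD4 Treg.

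The other steps that shape these glycans were read from the same role list. Of its 88 genes 61 were tested, and their median log2 fold change was -0.26 in CD4 Treg and -0.09 in CD8 Treg, each set against CD49lo, and 0.20 between the Treg groups (CD8 over CD4). In the first of these 3 comparisons 10 were higher and 14 lower, in the second 2 and 6, and in the third 10 and 8. That is 24, 8 and 18 of 61, read against the 22.3%, 5.30% and 16.9% of all genes. The count of 24 became 17 and 13 without CD4 Treg replicates 1 and 2, and 7 without either CD49lo replicate. The 8 became 2, 2, 0 and 1 in the same order, with 16 at an unadjusted limma p under 0.05 where 0 were called, and the 18 became 8, 7, 1 and 2.

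Around the core, the core 1 enzyme and its chaperone were not called in any comparison. C1galt1, which makes core 1, was at 24.4 to 30.1 RPKM in all libraries (log2 fold change at most 0.15 in size, adjusted p at least 0.507). Its chaperone C1galt1c1 varied between replicates as much as between groups (8.59 and 17.2 RPKM within CD49lo; adjusted p at least 0.271). Of 11 tested core and chain enzymes 2 were higher and 3 lower in CD4 Treg than in CD49lo, beside 9.45% and 12.8% of all genes tested. B4galt5, a galactosyltransferase best known for lactosylceramide, was at 6.82 ± 1.68 RPKM in CD4 Treg (SD, n = 2), 31.0 ± 1.35 in CD49lo (SD, n = 2) and 18.9 in the CD8 Treg library (log2 fold change -2.10 ± 0.18 in CD4 Treg against CD49lo, adjusted p = 4.44e-05). B3gnt8 had 79 reads in the 2 CD49lo libraries, 2 in the CD8 Treg library and 0 in CD4 Treg. It was at least 20.6-fold lower in CD4 Treg (floor of 3 reads over the group). B3gnt5, which elongates lacto-series glycolipids, was lower in CD4 Treg than in CD49lo (-1.34 ± 0.23, adjusted p = 0.00238) and higher in CD8 Treg than in CD4 Treg (1.24 ± 0.28, adjusted p = 0.014).

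Selectin ligands also need fucose and, on PSGL-1, tyrosine sulfate. Fut7, the main fucosyltransferase of leukocyte selectin ligands, was at 0.699 and 1.15 RPKM in CD4 Treg, at 2.78 in CD8 Treg, and at 3.46 and 1.17 in CD49lo, and was not called in any comparison (adjusted p at least 0.184). Fut4 had 70 reads in the 2 CD49lo libraries, 7 in the CD8 Treg library and 0 in CD4 Treg. It was at least 18.2-fold lower in CD4 Treg than in CD49lo (floor of 3 reads over the group, limma adjusted p = 0.0299). Fut4 is also expressed by myeloid cells. Their 11 markers summed to 17.1 and 4.01 RPKM for CD4 Treg, 287 for the CD8 Treg library, and 582 and 517 for CD49lo. How much of the Fut4 level came from such cells was not tested. Tpst2, which sulfates tyrosines, was at 37.4 and 40.3 RPKM in CD4 Treg, at 61.5 in CD8 Treg, and at 71.7 and 87.5 in CD49lo. CD4 Treg was lowest, as for Selplg, and Tpst2 was lower in CD4 Treg than in CD49lo (-0.99 ± 0.13, adjusted p = 0.000678). Tpst1 was at 1.89 to 3.34 RPKM and was not called (adjusted p at least 0.582). Chst2, which sulfates GlcNAc, was at 0.652 RPKM in CD8 Treg against 5.82 ± 0.605 in CD4 Treg (SD, n = 2) and 5.38 ± 0.342 in CD49lo (SD, n = 2) (-2.26 ± 0.24 against CD49lo, adjusted p = 0.00125).

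Of 6 tested genes of sialic acid supply, 1 was called in each comparison, and it was Cmah each time. Over all genes tested, 22.3% were called in CD4 Treg against CD49lo and 5.30% in CD8 Treg against CD49lo. In CD8 Treg against CD4 Treg the share was 16.9%. Gne, Cmas and Slc35a1, which make, activate and transport sialic acid, were not called in any comparison (smallest adjusted p 0.257, 0.0813 and 0.432). Cmah, the hydroxylase that turns N-acetyl into N-glycolyl sialic acid, was at 6.41 and 4.93 RPKM in CD4 Treg, at 35.1 in CD8 Treg, and at 22.2 and 20.0 in CD49lo. CD8 Treg was the highest library, as for St3gal6. For Cmah the log2 fold change was -1.79 ± 0.15 in CD4 Treg against CD49lo (adjusted p = 3.52e-05), 2.64 ± 0.18 in CD8 Treg against CD4 Treg (adjusted p = 2.29e-05) and 0.85 ± 0.18 in CD8 Treg against CD49lo (adjusted p = 0.0263). Neu3, a membrane sialidase, was higher in CD4 Treg than in CD49lo (1.09 ± 0.25, adjusted p = 0.0117).

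Among N-glycan branching enzymes, Mgat5, which adds a branch to complex N-glycans, was at 14.3 and 13.7 RPKM in CD4 Treg, at 7.397 in CD8 Treg, and at 6.21 and 5.33 in CD49lo (1.24 ± 0.14 in CD4 Treg against CD49lo, adjusted p = 0.000256). Mgat4a went the other way (-0.86 ± 0.21, adjusted p = 0.0167). Among the mucin scaffolds, Spn, which encodes the heavily sialylated CD43, was at 228 and 236 RPKM in CD4 Treg, at 217 in CD8 Treg, and at 375 and 427 in CD49lo. Spn was lower than in CD49lo in both CD4 Treg (-0.76 ± 0.10, adjusted p = 0.000466) and CD8 Treg (-0.75 ± 0.12, adjusted p = 0.00774). Cd44 was higher in CD8 Treg than in CD4 Treg (0.77 ± 0.14, adjusted p = 0.00586).

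Siglecs, lectins that bind sialic acid, were lower in CD4 Treg than in CD49lo in 5 of 6 tested genes, where 12.8% of all genes tested were lower. Cd22, which binds alpha2,6 sialic acid and marks B cells, was at 1.62 and 1.57 RPKM in CD4 Treg, at 19.5 in CD8 Treg, and at 19.7 and 18.7 in CD49lo (-3.20 ± 0.18 in CD4 Treg against CD49lo, adjusted p = 5.25e-06). Ms4a1, also a B cell gene, was at 19.1 and 35.3 RPKM in CD49lo, 10.9 in CD8 Treg, and 0.891 and 0.1195 in CD4 Treg. Siglech, a marker of plasmacytoid dendritic cells, had 390 reads in the 2 CD49lo libraries, 16 in the CD8 Treg library and 3 in CD4 Treg. Siglecg, another B cell Siglec, had 215, 36 and 1. At equal depth, CD49lo held 9.92 times the Siglech reads of CD8 Treg (95% exact interval 6.03 to 17.5, counting error only). For Siglecg it held 2.43 times (1.70 to 3.56). Cd22 and Siglech are themselves in the B cell and dendritic cell marker lists. The part of those cells in the Siglec levels was not tested.

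**Figure D4:**
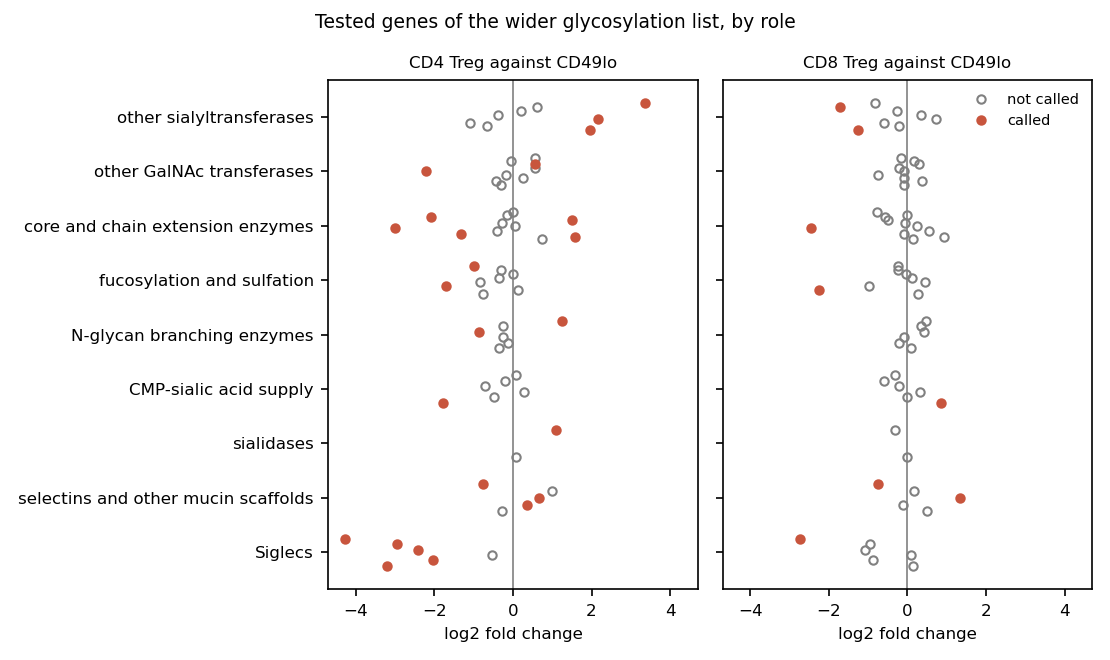
Log2 fold change (horizontal axis) of the 61 tested genes of the role list, by role (vertical axis), in CD4 Treg against CD49lo (left) and CD8 Treg against CD49lo (right); filled points were called and open points were not. On the left 10 are called higher and 14 lower, with 5 of 6 Siglecs lower; on the right 2 are called higher and 6 lower.

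Among the 18 genes that the naming rule took from the role list and that were called in CD4 Treg against CD49lo, B3gnt8, Cd22, Siglecg and St8sia6 kept the call without each replicated library in turn. The other 14 lost it without at least 1 library. For B3gnt5, B4galt5, Cmah, Galnt3, Siglech, Spn, St3gal2 and Tpst2 this was either CD49lo replicate, for Mgat5 CD49lo replicate 2, and for Fut4 either CD4 Treg replicate. Galnt6 and Mgat4a lost it without CD4 Treg replicate 2 or either CD49lo replicate, and Neu3 without any of the 4. Of the 16 called in CD8 Treg against CD4 Treg, St8sia6 kept the call each time. Cd22 lost it without CD49lo replicate 1, and B4galt5, Chst2, Cmah, St3gal2 and St8sia1 without either CD49lo replicate. Mgat4a lost it without CD4 Treg replicate 2 or either CD49lo replicate, and the other 8 without any of the 4. Of the 8 called in CD8 Treg against CD49lo, 0 kept it throughout: Chst2 lost it without either CD49lo replicate, B3gnt8 without either CD4 Treg replicate or CD49lo replicate 1, and Cmah, Siglech, Spn, St3gal2 and St8sia1 without any of the 4.

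Likeness of pattern was measured as the root mean square difference between centred log2 levels over the 5 libraries, among 11284 protein-coding genes. The genes closest to St6gal1 were Lysmd2 (0.11) and Il6ra (0.11), the latter at 58.0 and 50.9 RPKM in CD4 Treg, at 37.0 in CD8 Treg, and at 23.3 and 16.2 in CD49lo. Those closest to St3gal6 were Lrrk1 (0.20) and Hid1 (0.21); Lrrk1 was at 0.626 and 1.009 RPKM in CD4 Treg, at 16.3 in CD8 Treg and at 10.4 and 16.8 in CD49lo. Gcnt2 was closest to Rasa4 (0.08) and Susd1 (0.11), and Galnt10 to Trmt10b and Ccdc101 (0.08 each). The remaining genes, whose levels varied less, had neighbours within 0.02 to 0.07: Rragc and Tmx3 for St3gal1, Nuak1 and Ube2v2 for St3gal4, Gvin1 and Polg for St8sia4, Zxdb and Tacc1 for Selplg, and Tmem63b for Gcnt1. With 5 libraries many genes share such profiles, so likeness says nothing of function. Among the 9 themselves the closest pair was St3gal4 and Selplg, at 0.16.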

How the data were processed

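RNA-seq was made from 5 libraries; CASAVA, STAR and the mm10 genome are named without versions, per the submitters' processing notes, and the counting tool is not given in the sources used here. The values were deposited by the authors as RPKM, although the table is presented as counts. Multiplying a value by its gene length gave whole multiples of 1 step in each library (100% to a tolerance of 0.02), and so the reads behind it. Groups were compared with limma (version 3.58.1, R version 4.3.3), fitted to log2(RPKM + 0.5) with 3 group means for the 5 libraries, leaving 2 residual degrees of freedom. Libraries were first divided by scaling factors of 0.935 to 1.04 (TMM method). CD8 Treg, with 1 library, borrows its spread from the other groups. Fold changes are on the log2(RPKM + 0.5) scale, which understates changes of low genes.

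A gene was tested if 1 library or more reached what 10 reads are worth at median depth and all libraries together held 15 reads, which left 13298 genes. The variance prior followed mean log2 abundance, and p-values are two-sided with Benjamini-Hochberg adjustment over all genes tested. A count of 0 allows up to 3 reads; intervals are 95% exact Clopper-Pearson and cover counting error only. The fit was tested on simulated data. The members and lists were chosen with earlier results of these data known. Named from the role list are up to 3 called genes per role with the smallest adjusted p, and 10 direct partners of the members; 3 genes that the rules would name are not reported here. Motifs were counted in RefSeq windows (GRCm38.p6). Alternatives were 2 pseudocounts, no filter, no scaling factor, limma-voom, a prior without a trend, a replicate block and leaving out libraries.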

Additional observations from a re-analysis of the deposited data

How the results depend on the processing

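The directions and calls of St6gal1 and St3gal6 in CD4 Treg against CD49lo held in all 12 alternatives run. Both genes were picked with these differences known, so this describes the fit and is not independent evidence. In the least favourable alternative for each gene, the call passed the threshold only narrowly. Over all 9 genes, 222 alternative values kept direction and side of the threshold, 56 lost the call, 5 gained it and 5 changed sign; for the named genes of the role list these numbers were 719, 160, 4 and 13. Without the filter on low reads, 704 genes were called in CD4 Treg against CD49lo (2964 with it) and 1277 in CD8 Treg against CD4 Treg (2241 with it). In these 2 comparisons the 9 genes then gave 2 calls each and the role list 6 and 8. CD8 Treg against CD49lo then gave 0 and 1. With a variance prior that has no trend, these 3 comparisons gave 1961, 1192 and 2 genes (705 in the last with a trend), 3, 2 and 0 of the 9, and, for the role list, 10 in CD8 Treg against CD4 Treg and 0 in CD8 Treg against CD49lo. Where 0 of the 9 were called, limma gave 3 (no filter) and 2 (no trend) at an unadjusted p under 0.05, and 14 of the role list. Without a scaling factor, 2 of the 9 were called in CD8 Treg against CD4 Treg. That setting moved the median log2 fold change of all genes by -0.02 in CD4 Treg and -0.12 in CD8 Treg, each set against CD49lo, and by -0.09 between the Treg groups. The share of calls that were higher in CD8 Treg against CD49lo was 32.3%, but 20.6% without a scaling factor, 50.8% with limma-voom and 85.2% without a filter. limma-voom on the recovered reads called 2929 genes for CD4 Treg and 689 for CD8 Treg over CD49lo, and 1817 between the Treg groups. The cause of these changes was not tested.

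With 1 replicate left out, 1 residual degree of freedom remained, and the lone sample is assumed to vary like the other groups. Calls over all genes then ranged from 437 to 1457 in CD4 Treg against CD49lo, from 155 to 967 in CD8 Treg against CD4 Treg, and from 0 to 199 in CD8 Treg against CD49lo (2209 at an unadjusted limma p under 0.05 where 0 were called, without CD49lo replicate 1). For the 9 genes the ranges were 2 to 3, 0 to 2 and 0 to 1, and for the role list 7 to 17, 1 to 8 and 0 to 2. The replicate block could be fitted only in CD4 Treg against CD49lo without the CD8 Treg library: 3577 genes, 8 of the 9 and 27 of the role list were called. Leaving out that library alone, an alternative chosen after seeing the data, gave 3151, 8 and 27. The deviations of replicates with the same number had a correlation of -0.02 across 13298 genes. With so few replicates this value cannot exclude pairs or a shared batch. The numbers were not taken as pairs in the main fit.

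Signs that changed were all of uncalled differences. Without a scaling factor, the log2 fold change became -0.021 for C1galt1c1 in CD4 Treg against CD49lo, -0.078 for Selplg in CD8 Treg against CD49lo, and, in CD8 Treg against CD4 Treg, -0.054 for Gne, -0.095 for Spn, -0.081 for St3gal1 and -0.0034 for Tpst1. With 1 replicate left out, it ranged in CD8 Treg against CD49lo from -0.33 to 0.15 for B3gnt5, -0.0085 to 0.00067 for C1galt1, -0.067 to 0.044 for Cmas, -0.17 to 1.09 for Fut7, -0.28 to 0.11 for Galnt3 and -0.023 to 0.14 for Selplg. In CD8 Treg against CD4 Treg it ranged from -0.15 to 0.33 for Gcnt1, -0.0086 to 0.028 for Spn, -0.048 to 0.088 for St3gal1 and -0.16 to 0.33 for Tpst1, and for C1galt1c1 in CD4 Treg against CD49lo from -0.45 to 0.48. Depth limits Gcnt1 and Gcnt2, which had at most 67 reads in any library.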
